A study of Mus musculus with 36 samples.

Results

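Hepcidin, the iron-regulating hormone of the liver, and the genes of its BMP6 control were followed by 9 gene symbols: Hamp and Hamp2, which encode the hepcidins, Bmp6, Hjv, Tfr2, Slc40a1, Trf, Smad7 and Id1. They were chosen as the probe sets of the deposited array values that the platform annotation gives to these symbols, and 8 of the 9 had a probe set of their own, 1 each, among 22180 genes measured in this way. The probe set of Trf, the transferrin gene, is also annotated to Srprb, so it gives no value for Trf.

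The study examined what a lung adenocarcinoma does to the round-the-clock transcript levels of the liver, an organ away from the tumour. The C57BL/6 mice were either WT or TB, the tumour-bearing mice, whose genotype is given as KrasLSL-G12D;p53fl/fl, and all were housed under a cycle of 12 h light and 12 h darkness. Their livers were collected at 6 Zeitgeber times (ZT, hours from lights on) every 4 h, with 3 arrays per genotype and time and 36 arrays altogether. LSL and floxed alleles need a Cre recombinase to act. How Cre was delivered, the age and the sex of the mice, and any treatment of the WT mice are not stated in the labels. The genes of these alleles were not analysed. The labels number the arrays of a group as replicates without saying that each came from its own mouse, so the p-values below reflect a spread between arrays that can be partly technical. Where livers are counted or compared below, the unit is the array.

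Hepatocytes release hepcidin when iron is plentiful, and the hormone binds the iron exporter ferroportin on gut cells and macrophages and has it degraded, which lowers plasma iron. Sinusoidal endothelial cells of the liver secrete BMP6 as iron stores grow. BMP6 acts on BMP receptors of the hepatocyte with hemojuvelin as coreceptor, receptor-regulated SMAD proteins enter the nucleus, and Hamp, Id1 and Smad7 are transcribed. Inflammation raises Hamp by a second route, through IL-6 and STAT3.

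The promoter of Hamp is shown because both routes end there, and that of its paralogue Hamp2 for comparison. Each run holds the 250 bases before the annotated start, from RefSeq on GRCm38.p6, read 5′ to 3′ on the minus strand, in lower case with matches to searched motifs in capitals.
Hamp, chr7:30944030-30944279: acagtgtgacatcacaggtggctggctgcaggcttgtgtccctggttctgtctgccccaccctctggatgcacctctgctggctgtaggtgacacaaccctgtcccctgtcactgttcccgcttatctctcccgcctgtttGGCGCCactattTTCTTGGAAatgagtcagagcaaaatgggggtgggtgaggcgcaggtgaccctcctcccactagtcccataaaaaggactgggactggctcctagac
Hamp2, chr7:30924182-30924431: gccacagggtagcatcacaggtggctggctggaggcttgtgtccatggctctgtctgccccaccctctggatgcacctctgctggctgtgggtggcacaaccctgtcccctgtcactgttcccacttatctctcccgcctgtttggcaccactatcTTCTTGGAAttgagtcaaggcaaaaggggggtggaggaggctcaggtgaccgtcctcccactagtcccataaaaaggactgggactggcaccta
The motifs searched on both strands were GGCGCC, the core of BMP response elements, TTCNNNGAA, the STAT element, and CACGTG, the E-box bound by clock factors, and no matches overlapped. Hamp held GGCGCC from base −109 to −104 and TTCTTGGAA from −97 to −89, counted back from the start. Hamp2 held the same TTCTTGGAA from −94 to −86 and no GGCGCC. In an alignment with 227 identical columns of 253 (89.7%) and 6 gap columns, the site of GGCGCC differed by G4A from Hamp to Hamp2, with positions counted from 1 at the 5′ end of the motif. GGCGCC was found in 9.59% of 32851 RefSeq windows of this length, TTCNNNGAA in 7.02% and CACGTG in 6.02%. The window of Bmp6 held CACGTG, and the 3 windows of Tfr2 held no match to these letters. A match is a description and not a binding site.

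Values are given below as log2(intensity + 16), and differences between genotypes as TB minus WT on this scale, which understates the change of dim probe sets. Labels were first checked against marker genes. The mean of 9 hepatocyte markers lay between 12.42 and 12.62 in the 36 arrays. The mean of 15 skeletal muscle markers was 12.51 in WT ZT 12 replicate 3 and between 5.80 and 6.68 in the 35 other arrays. The arrays also fell into a smaller set of 12 and a larger set of 24, found from deviations from group means over probe sets without a symbol and not named in the labels. Each group of 3 held 1 array of the smaller set, and its replicate number matched between the genotypes at every time (number 3 at ZT 0 and 12, 1 at ZT 4 and 16, 2 at ZT 8 and 20). Results are given with and without the muscle-bearing array and within each set where these touch them.

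Averaged over the day, none of the 8 genes differed between TB and WT livers at an adjusted p under 0.05 (limma), where 0.176% of all genes did (39 of 22180, 26 higher and 13 lower in TB). At an unadjusted p under 0.05 stood 3 of the 8, Bmp6, Hjv and Hamp2, against 11% of all genes. All 3 were lower in TB, and 5.35% of all genes were lower at that p. With the array set as a block, Bmp6 and Hjv passed, where 0.681% of all genes were called. For Hamp itself the difference was −0.051 ± 0.087.

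Bmp6, the endothelial ligand, had a lower mean in TB livers at 5 of 6 times. All 18 TB arrays lay below the WT median of 7.071, the highest narrowly at 7.062. The lowest WT array, at 6.39, lay below every TB array. The share of all genes with such a split was not computed. At ZT 4 the WT livers read 7.35, 7.13 and 7.07 and the TB livers 6.74, 6.66 and 6.41. At ZT 16 the WT livers read 7.41, 7.07 and 6.82 and the TB livers 6.74, 6.45 and 6.81. At ZT 20 the WT livers read 7.08, 7.07 and 7.06 and the TB livers 6.71, 6.86 and 6.79. In each of these groups every WT liver was above every TB liver, narrowly at ZT 16. The same held at ZT 8, with 7.05, 7.22 and 7.10 in WT and 6.66, 6.99 and 6.75 in TB. At ZT 0 the genotypes overlapped, with 6.69, 6.84 and 7.20 in WT and 6.55, 7.03 and 6.91 in TB. They also overlapped at ZT 12, with 6.39, 6.80 and 7.33 in WT, the widest group of this gene, and 6.71, 6.78 and 7.06 in TB. Genotypes without overlap were found for 9.38% of all genes at ZT 4, 9.39% at ZT 8, 13.3% at ZT 16 and 6.57% at ZT 20.

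**Figure D1:**
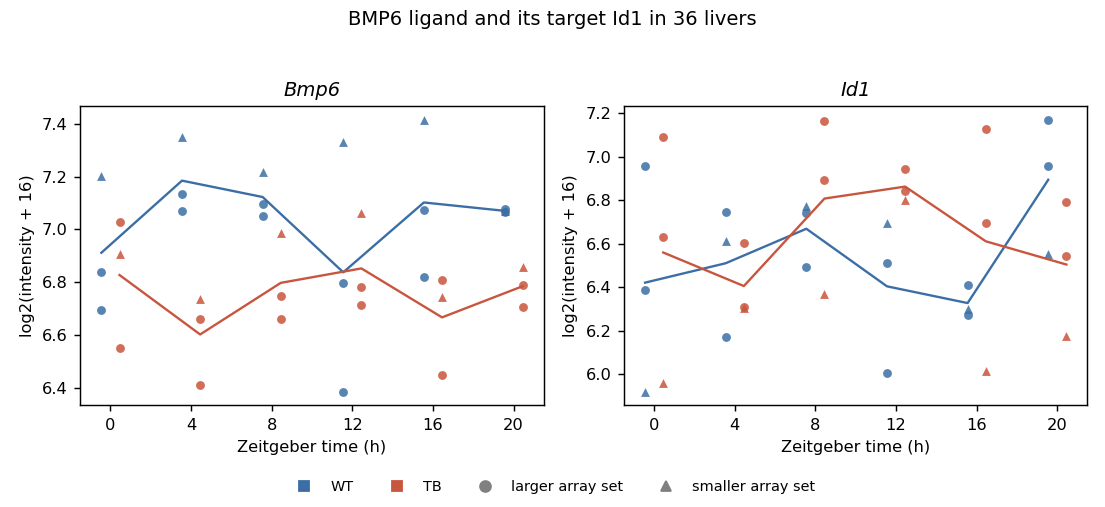
Bmp6 and Id1 as log2(intensity + 16) against Zeitgeber time in hours; each point is 1 array, colours are genotypes, shapes are the array sets, and lines join the means of 3 arrays. For Bmp6 all TB points lie below the WT median of 7.07, the highest narrowly at 7.06, while the lowest WT point is 6.39. The Id1 points of both genotypes overlap at every time except ZT 12.

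The mean of Bmp6 was 7.04 in WT and 6.76 in TB, a difference of −0.28 ± 0.072 (SE, 18 arrays per genotype, 95% interval −0.43 to −0.14, 1.22-fold lower in TB; limma adjusted p = 0.106). The difference was −0.23 in the larger array set and −0.38 in the smaller. With the array set as a block the limma adjusted p was 0.0173, in a fit that called 0.681% of all genes. Bmp6 also passed without WT ZT 12 replicate 1, its lowest WT array (adjusted p = 0.0215, with 0.469% of all genes called), and its adjusted p lay between 0.0215 and 0.191 as single arrays were left out. Without the muscle-bearing array the difference was −0.24 (adjusted p = 0.116), that at ZT 12 was 0.26 against 0.014 with it, and the unadjusted p of the interaction with ZT was 0.0188 against 0.207 (adjusted p = 1.0 for each). By time of day it was largest at ZT 4 (−0.58 ± 0.18, adjusted p = 1.0) and next at ZT 16 (−0.43 ± 0.18, adjusted p = 0.863), and no time passed. The amplitude of Bmp6 was 0.049 ± 0.074 in WT and 0.026 ± 0.074 in TB, neither called.

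In bulk liver, fewer cells of a type and less RNA per cell cannot be told apart. The mean of 14 sinusoidal endothelial markers ran from 7.97 to 8.40 in WT and from 7.93 to 8.39 in TB. Of these markers 7 were higher and 7 lower in TB, with a median difference of 0.0010. None was called for genotype, 3 of the 14 had an unadjusted p under 0.05 (limma, 11% of all genes), and none had a mean under 5. In WT 5 of the 14 were called rhythmic and in TB 0, against 6.45% and 4.95% of all genes. The test of a difference in rhythm between genotypes called 0 of the 14. At ZT 4 the marker mean read 8.305, 8.387 and 8.283 in WT and 8.247, 8.204 and 8.048 in TB. At ZT 12 it read 7.971, 8.207 and 8.082 in WT and 8.394, 8.109 and 8.146 in TB. At ZT 16 it read 8.046, 8.13 and 8.014 in WT and 8.079, 8.259 and 8.245 in TB. The part of these markers in the value of Bmp6 was not tested.

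Among 14 other BMP family ligands and antagonists of a list written for this pathway, none was called for genotype, 9 were higher and 5 lower in TB, and the median difference was 0.038, against 0.0073 for all genes. Inhbb, an activin subunit that also induces hepcidin, differed by 0.44 ± 0.11 (limma adjusted p = 0.0814), opposite in sign to Bmp6. Bmp10 differed by −0.22 ± 0.063 (adjusted p = 0.148) and Bmp4 by −0.15 ± 0.086 (adjusted p = 0.535). Bmp2, the other endothelial ligand that controls hepcidin, differed by 0.061 ± 0.065 (adjusted p = 0.773).

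Hjv, the hemojuvelin coreceptor that hepatocytes need to answer BMP6, had lower values in TB livers around the end of the light phase, although no single time passed the test. At ZT 8 the WT livers read 9.11, 9.03 and 9.44 and the TB livers 8.93, 8.70 and 8.85. At ZT 12 the WT livers read 9.28, 9.28 and 9.72 and the TB livers 8.92, 8.79 and 8.42. These 6 TB livers were the lowest of all 36, and neither time had any overlap between genotypes, as was so for 9.39% and 11% of all genes.

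At the other times the genotypes overlapped. At ZT 0 Hjv read 9.45, 9.59 and 9.45 in WT and 9.24, 9.48 and 9.53 in TB. At ZT 4 it read 9.54, 9.76 and 9.63 in WT and 9.36, 9.59 and 9.49 in TB. At ZT 16 it read 9.29, 9.55 and 9.45 in WT and 9.40, 9.36 and 9.33 in TB, with a difference of −0.068 between the means. At ZT 20 it read 9.45, 9.26 and 9.32 in WT and 9.66, 9.12 and 9.47 in TB, where the TB mean was the higher by 0.070.

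The difference at ZT 12 was −0.71 ± 0.14 (SE, 3 arrays per group, 1.64-fold lower in TB; limma adjusted p = 0.199), at a time when none of the 22180 genes was called and 1644 (7.41%) had an unadjusted p under 0.05. The highest WT value there, 9.72, came from the muscle-bearing array. Without it the difference was −0.57 ± 0.15 (adjusted p = 0.43). Without WT ZT 12 replicate 1 it was −0.79 and passed (adjusted p = 0.0365, with 0.0902% of all genes called). At ZT 8 the difference was −0.36 ± 0.14 (adjusted p = 0.824), where 0.00451% of all genes were called. Averaged over the day Hjv differed by −0.22 ± 0.058 (95% interval −0.34 to −0.10; limma adjusted p = 0.12), by −0.18 in the larger array set and −0.30 in the smaller, and it passed with the array set as a block (adjusted p = 0.0476).

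By a fit of fixed 24 h period, Hjv was called rhythmic in TB livers. The 6 times cover a single cycle, so whether the pattern recurs was not tested. TB means were 8.83 at ZT 8 and 8.71 at ZT 12. At the other times they lay between 9.36 and 9.48, the highest at ZT 4. In WT the lowest mean, 9.19, was at ZT 8, and in TB the lowest was at ZT 12. A 24 h cosine fitted to the 18 TB arrays had an amplitude of 0.38 ± 0.071 (SE), a peak at ZT 22.6 and a peak 1.69 times the trough (limma adjusted p = 0.00204). It was the 1 gene of the 8 called rhythmic in TB, where 4.95% of all genes were called. In WT livers none of the 8 was called, against 6.45% of all genes, and Hjv had an amplitude of 0.087 ± 0.071 there (adjusted p = 0.83). The TB amplitude was 0.34 with a peak at ZT 22.4 in the larger array set and 0.45 with a peak at ZT 22.8 in the smaller. The call in TB held with each of the 36 arrays left out in turn (adjusted p from 0.000627 to 0.0102).

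**Figure D2:**
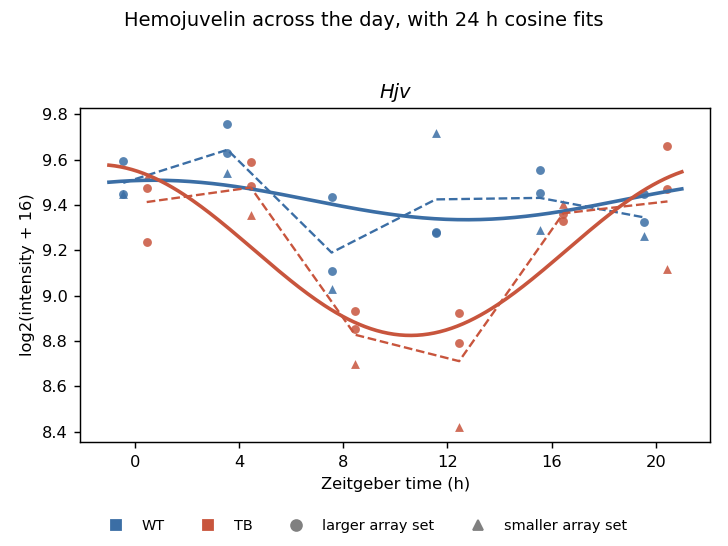
Hjv as log2(intensity + 16) against Zeitgeber time in hours; each point is 1 array, colours are genotypes, shapes are the array sets, dashed lines join the means of 3 arrays and solid lines are 24 h cosine fits. The TB points at ZT 8 and ZT 12 lie lowest, and the TB curve has an amplitude of 0.38 against 0.087 in WT.

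A rhythm called in TB and not in WT does not by itself show that the genotypes differ. The test of equal cosine terms gave Hjv an unadjusted p of 0.0153 and an adjusted p of 0.985 (limma), and it called none of 22180 genes (1065, or 4.8%, at an unadjusted p under 0.05). The test of whether the genotype difference depends on ZT gave Hjv an unadjusted p of 0.00732 and an adjusted p of 1.0, again with none of all genes called (550, or 2.48%, at an unadjusted p under 0.05). In the order of the 12 group means Hjv ran from 9.64 in WT at ZT 4 to 8.71 in TB at ZT 12. Between neighbours in this order the gap was over the larger SD in 2 of 11 steps, below WT ZT 4 and between WT ZT 8 and TB ZT 8.

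Tfr2, the hepatocyte receptor that senses transferrin-bound iron, had higher means in TB livers at 6 of 6 times, but the genotypes overlapped at each. WT livers ran from 9.27 to 10.75 with a median of 10.13, and TB livers from 9.69 to 10.96 with a median of 10.39. The difference was 0.25 ± 0.13 (95% interval −0.029 to 0.52; limma adjusted p = 0.512), and 0.18 without the muscle-bearing array, which held the lowest Tfr2 value of all. Without that array the difference at ZT 12 was −0.11, against 0.31 with it. The value of Tfr2 followed the array set: the array of the smaller set was the lowest of its group in 12 of 12 groups. It lay lower by a mean of 0.66 ± 0.076 (SE of the set term in a least-squares fit with the 12 group means). Within the sets the genotype difference was 0.23 in the larger and 0.27 in the smaller.

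Of 14 other genes of BMP reception and iron sensing, none was called for genotype, 3 were higher and 11 lower in TB, and the median difference was −0.053. Tmprss6, the protease that cleaves hemojuvelin, differed by −0.050 ± 0.037 (limma adjusted p = 0.659). Hfe, the hemochromatosis protein that works with TFR2, differed by −0.059 ± 0.051 (adjusted p = 0.721), and Furin, which processes hemojuvelin, by −0.072 ± 0.046 (adjusted p = 0.588). The type II receptor gene Acvr2a differed by −0.12 ± 0.061 (adjusted p = 0.465). Tfrc, the transferrin receptor of iron uptake, differed by −0.15 ± 0.087 (adjusted p = 0.553) and was the 1 gene of this list called rhythmic in WT, with an amplitude of 0.43 ± 0.11 and a peak at ZT 17.8 (adjusted p = 0.0242). Its amplitude in TB was 0.31 ± 0.11 (adjusted p = 0.188).

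Id1, a transcriptional inhibitor and an immediate target of BMP6 signalling, did not differ between genotypes beyond its spread. WT livers ran from 5.92 to 7.17 with a median of 6.53, and TB livers from 5.96 to 7.17 with a median of 6.66. The difference was 0.088 ± 0.11 (95% interval −0.14 to 0.32; limma adjusted p = 0.822). Its sign turned between the array sets, with 0.23 in the larger and −0.21 in the smaller. At ZT 12, where Hjv was lowest in TB, Id1 read 6.00, 6.51 and 6.70 in WT and 6.84, 6.95 and 6.80 in TB. All 3 TB livers were thus above the WT livers there, at a time when 11% of all genes had no overlap. The difference was 0.46 ± 0.27 (limma adjusted p = 0.743), and from 0.26 to 0.61 as single arrays were left out.

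Smad7, the inhibitory SMAD that feeds back on the receptors, ran from 6.19 to 7.52 with a median of 6.61 in WT and from 6.34 to 7.10 with a median of 6.81 in TB. The difference was 0.037 ± 0.10 (95% interval −0.17 to 0.25; limma adjusted p = 0.931), with 0.16 in the larger array set and −0.21 in the smaller.

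Of 13 further SMAD proteins and BMP targets, none was called for genotype, 9 were higher and 4 lower in TB, and the median difference was 0.040. Id2, a relative of Id1, differed by 0.18 ± 0.064 (limma adjusted p = 0.267), Hes1 by 0.14 ± 0.092 (adjusted p = 0.612) and Smad4, the shared SMAD partner, by 0.068 ± 0.046 (adjusted p = 0.615). In WT livers 3 of the list were called rhythmic. Id2 had an amplitude of 0.42 ± 0.071 with a peak at ZT 0.80 (adjusted p = 0.000401), Id3 of 0.70 ± 0.16 with a peak at ZT 22.7 (adjusted p = 0.0118), and Smurf1, a ubiquitin ligase for SMADs, of 0.19 ± 0.048 with a peak at ZT 7.91 (adjusted p = 0.0293). In TB livers their amplitudes were 0.13 for Id2, 0.33 for Id3 and 0.022 for Smurf1, none of them called. No difference in rhythm passed for any gene of the list. Id1 had amplitudes of 0.075 in WT and 0.19 in TB, neither called.

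Hamp, the hepcidin gene, stood at high intensity in every liver. WT livers ran from 12.39 to 13.34 with a median of 13.05, and TB livers from 12.40 to 13.34 with a median of 13.09. The means of the genotypes differed by −0.051 ± 0.087 (95% interval −0.23 to 0.13, TB at 0.965 of the WT level; limma adjusted p = 0.879). In the larger array set the difference was −0.012 and in the smaller −0.13. That interval is not adjusted for the number of genes and rests on the spread between arrays. It does not exclude a larger difference or show that the levels were equal. The mean intensity of Hamp was at or above that of 99.9% of all genes, and the response of the arrays at such intensities was not tested.

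By time of day, Hamp read 13.31, 13.19 and 12.39 in WT and 13.21, 12.96 and 12.40 in TB at ZT 0. At ZT 4 it read 12.84, 13.07 and 13.05 in WT and 12.72, 13.11 and 12.74 in TB. At ZT 8 it read 13.11, 13.04 and 13.15 in WT and 13.15, 12.78 and 13.27 in TB. The third array at ZT 0 was the lowest of its group in both genotypes, and both arrays belong to the smaller array set.

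At ZT 12 Hamp read 12.79, 13.03 and 12.95 in WT and 13.34, 13.27 and 13.11 in TB, the 1 time without overlap (11% of all genes had none there), and every TB liver was the higher. That difference was 0.32 ± 0.21 (limma adjusted p = 0.783). At ZT 16 it read 13.05, 13.26 and 13 in WT and 12.46, 13.13 and 13.33 in TB. At ZT 20 it read 13.25, 12.79 and 13.34 in WT and 13.06, 12.80 and 12.85 in TB. The amplitude was 0.042 ± 0.082 in WT (adjusted p = 0.973) and 0.18 ± 0.082 with a peak at ZT 11.7 in TB (adjusted p = 0.456). Group means ran from 13.24 in TB at ZT 12 to 12.86 in TB at ZT 4, and no neighbours in their order were farther apart than the larger SD.

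**Figure D3:**
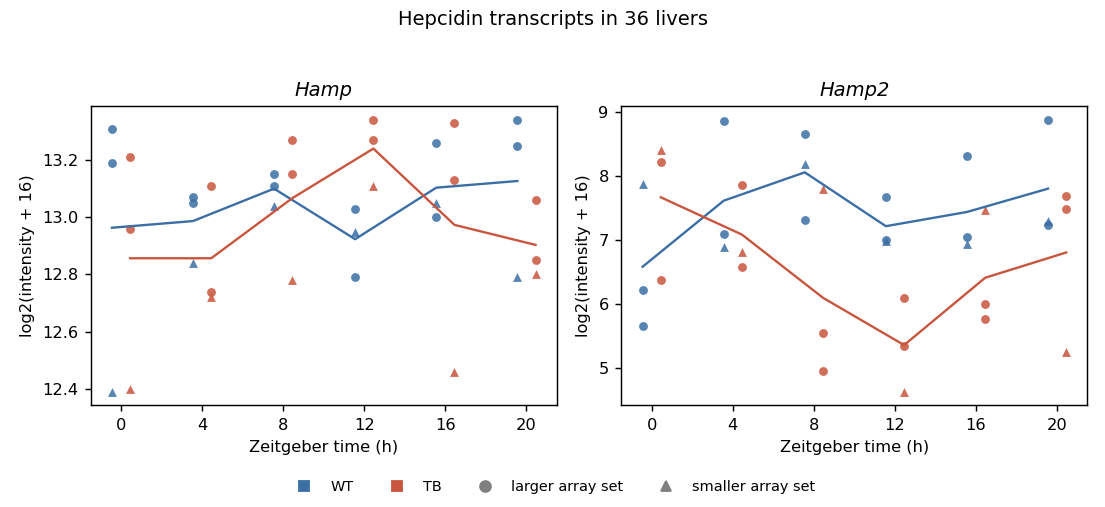
Hamp and Hamp2 as log2(intensity + 16) against Zeitgeber time in hours, on separate axes; each point is 1 array, colours are genotypes, shapes are the array sets, and lines join the means of 3 arrays. Hamp stays between 12.39 and 13.34 in both genotypes, while Hamp2 has its lowest mean, 5.35, in TB at ZT 12.

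Hamp2 is the neighbouring mouse paralogue of Hamp, and its forced expression does not cause the anaemia that Hamp causes. It varied far more between arrays, from 5.64 to 8.88 with a median of 7.27 in WT and from 4.62 to 8.42 with a median of 6.48 in TB. Because the paralogues are near copies, signal of one transcript on the probe set of the other was not tested. At ZT 8 Hamp2 read 7.32, 8.19 and 8.67 in WT and 4.94, 7.80 and 5.54 in TB. At ZT 12 it read 7.00, 7.67 and 6.98 in WT and 6.09, 5.34 and 4.62 in TB, without overlap (11% of all genes had none there), and TB means were below WT at 5 of 6 times. At ZT 0 the order was turned, with 6.21, 5.64 and 7.88 in WT and 8.22, 6.37 and 8.42 in TB.

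Averaged over the day the difference of Hamp2 was −0.88 ± 0.30 (SE, 18 arrays per genotype, 95% interval −1.50 to −0.27, 1.85-fold lower in TB; limma adjusted p = 0.238). It was −1.01 in the larger array set and −0.64 in the smaller, and from −1.11 to −0.885 under 8 other settings of the processing. At ZT 8 it was −1.97 ± 0.74 (adjusted p = 0.813), at ZT 12 −1.86 ± 0.74 (adjusted p = 0.583) and at ZT 0 1.09 ± 0.74 (adjusted p = 1.0). The amplitude in TB was 1.00 ± 0.30 with a peak at ZT 24 (adjusted p = 0.099), which passed without TB ZT 8 replicate 2 or TB ZT 20 replicate 2, and in WT 0.26 ± 0.30 (adjusted p = 0.918). The test of equal rhythms gave an unadjusted p of 0.0208 and an adjusted p of 0.985. In TB livers at ZT 12 Hamp was at its highest group mean and Hamp2 at its lowest, with neither genotype difference called there. Whether the courses of Hamp and Hamp2 over the day differ in TB was not tested.

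Slc40a1 encodes ferroportin, the iron exporter that hepcidin removes from the cell surface. WT livers ran from 8.26 to 9.47 with a median of 8.98, and TB livers from 8.54 to 9.57 with a median of 9.13. The difference was 0.11 ± 0.097 (95% interval −0.090 to 0.30; limma adjusted p = 0.727), and 0.060 without the muscle-bearing array, which held the lowest value. Of 12 markers of Kupffer cells, which express ferroportin, 11 were higher in TB in bulk liver, with a median of 0.11, where 11943 of 22180 genes were higher. None of the markers was called, and 1 of the 12 had an unadjusted p under 0.05 (limma, 11% of all genes). Their mean ran from 6.86 to 8.20 in WT and from 7.16 to 8.09 in TB, and none of them had a mean under 5. Their part in the value of Slc40a1 was not tested.

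**Figure D4:**
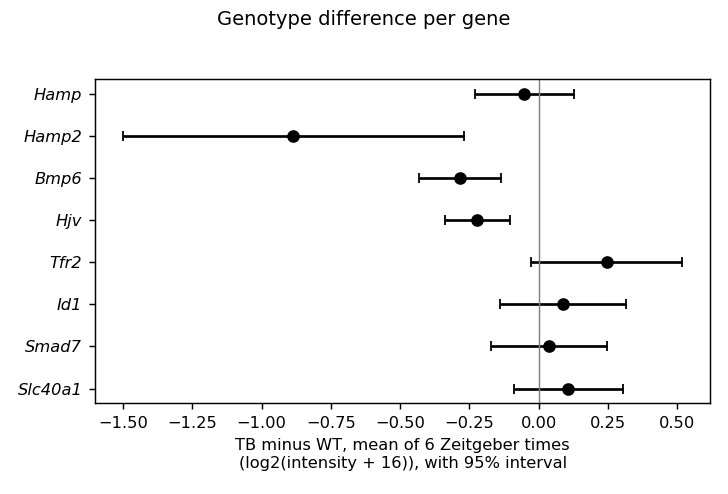
Difference between TB and WT for each of the 8 genes, averaged over the 6 Zeitgeber times, on the log2(intensity + 16) scale; points are limma estimates and bars are 95% intervals, not adjusted for the number of genes. The intervals of Bmp6, Hjv and Hamp2 lie below 0, and that of Hamp, from −0.23 to 0.13, holds 0.

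Arrays of one group also differed among themselves, which allowed the genes to be compared across arrays with genotype and time taken out. How much of these deviations lies between mice and how much is technical was not tested. Relations were computed on deviations from the 12 group means for 28 pairs of the 8 genes, and for Hamp with Saa2, Socs3, Il6st and Tfrc, 32 in all. Because several genes shift between the array sets, each relation was read within the sets as well. In the larger set arrays were permuted within groups, and in the smaller set, with 1 array per group, freely over values that still hold genotype and time.

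Hamp varied with Id1. In the 24 arrays of the larger set Pearson r was 0.601 (permutation p = 0.0253, adjusted p = 0.27), and in the 12 of the smaller set 0.862 (permutation p = 0.00051, adjusted p = 0.0163). Over all 36 arrays r was 0.835 (permutation p = 6e-05, adjusted p = 0.00112, two-sided), Spearman's rho was 0.719 (permutation p = 0.00026, adjusted p = 0.00416), and r was 0.79 without the 2 arrays farthest from the median of Hamp. The relation was called with each single array left out, with r from 0.797 to 0.88. It had 1 sign in both sets but passed adjustment in the smaller only. The level of both genes was lower in the smaller set, Hamp by 0.35 ± 0.069 and Id1 by 0.31 ± 0.11, and the pooled r includes that shared shift.

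Smad7 and Id1, targets of the same SMAD signal, showed r = 0.804 in the larger set (permutation p = 0.0126, adjusted p = 0.202) and 0.790 in the smaller (permutation p = 0.00239, adjusted p = 0.0294). Over all arrays r was 0.276 (permutation p = 0.122, adjusted p = 0.325) and rho 0.301 (permutation p = 0.126, adjusted p = 0.336), and r was 0.216 without the 2 farthest arrays. Smad7 was higher by 0.34 ± 0.096 in the smaller set while Id1 was lower there, which the plot of deviations shows as separate bands. Hamp and Smad7 had r = 0.538 in the larger set (permutation p = 0.0532, adjusted p = 0.426) and 0.782 in the smaller (permutation p = 0.00276, adjusted p = 0.0294), against −0.061 over all arrays (permutation p = 0.705, adjusted p = 0.739; rho −0.096, permutation p = 0.615, and r = −0.128 without the 2 farthest arrays).

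**Figure D5:**
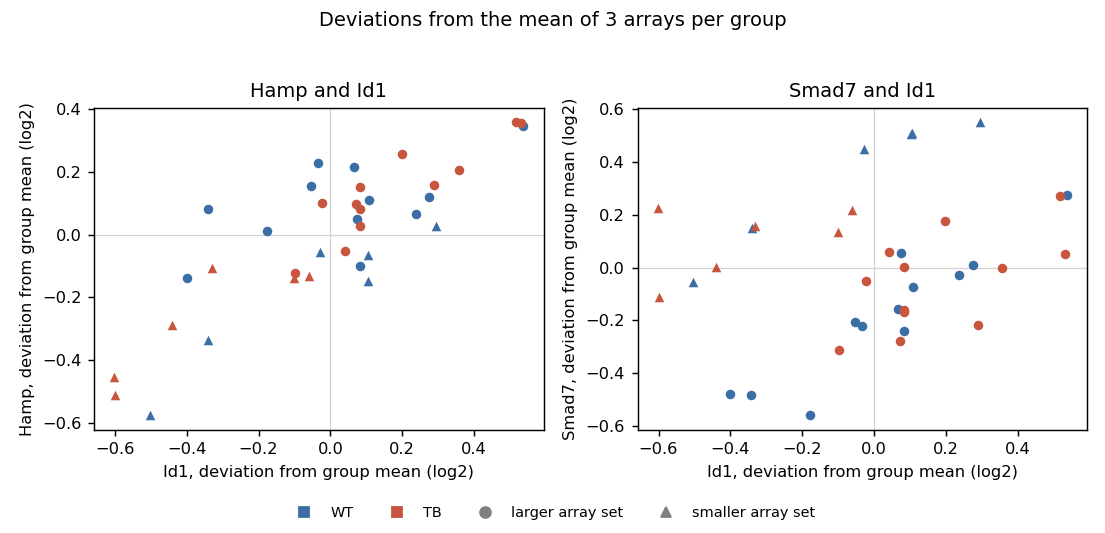
Deviations of Hamp (left) and Smad7 (right) from their group means against those of Id1, in log2 units; each point is 1 of 36 arrays, colours are genotypes and shapes are the array sets. Hamp and Id1 lie along 1 band with r = 0.835, and Smad7 and Id1 along a band for each set, with r = 0.276 over all arrays.

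The relation of Hamp with its ligand was not called. Hamp and Bmp6 had r = 0.325 in the larger set (permutation p = 0.396, adjusted p = 0.968) and 0.50 in the smaller (permutation p = 0.099, adjusted p = 0.324), against −0.323 over all arrays (permutation p = 0.112, adjusted p = 0.325; rho −0.388, permutation p = 0.057, and r = −0.227 without the 2 farthest arrays). Bmp6 was higher by 0.26 ± 0.060 in the smaller set, where Hamp was lower. Hamp and Hamp2 had r = 0.689 in the larger set (permutation p = 0.00118, adjusted p = 0.0378), the 1 relation of 32 called there, and −0.504 in the smaller (permutation p = 0.0923, adjusted p = 0.324). Pooled, Hamp and Hamp2 had r = −0.205 (permutation p = 0.367, adjusted p = 0.595) and rho −0.079 (permutation p = 0.715), and r was 0.0026 without the 2 farthest arrays. The smaller set called 4 relations: those of Hamp, Smad7 and Id1 with each other, and Hjv with Slc40a1 at r = −0.744 (permutation p = 0.00608, adjusted p = 0.0486), which had r = −0.259 in the larger set and −0.213 pooled.

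Besides Hamp with Id1, 4 other relations were called over all arrays, and none of them was called within a set. Hamp and Tfr2 had r = 0.666 (permutation p = 0.00063, adjusted p = 0.00672), with 0.043 for the larger set and −0.145 for the smaller. Bmp6 and Tfr2 had r = −0.806 (permutation p = 7e-05, adjusted p = 0.00112), with −0.674 for the larger set and −0.494 for the smaller. Bmp6 and Smad7 had r = 0.582 (permutation p = 0.00553, adjusted p = 0.0354), with 0.221 and 0.552. Tfr2 and Smad7 had r = −0.518 (permutation p = 0.00488, adjusted p = 0.0354), with −0.141 and −0.040. Without the 2 farthest arrays these 4 values of r were 0.616, −0.734, 0.435 and −0.474. Spearman's rho was 0.646 (permutation p = 0.00089, adjusted p = 0.00949), −0.766 (permutation p = 8e-05, adjusted p = 0.00256), 0.543 (permutation p = 0.00752, adjusted p = 0.0602) and −0.450 (permutation p = 0.0151, adjusted p = 0.0967), so the last 2 did not pass by rank. Hamp with Tfr2 and Tfr2 with Smad7 had values nearer to 0 within the sets. As each of the 36 arrays was left out in turn, Hamp with Tfr2 and Bmp6 with Tfr2 were called 36 times. Bmp6 with Smad7 was called 21 times and Tfr2 with Smad7 22 times, so those calls depend on single arrays.

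Lists of acute phase genes and of genes of IL-6 signals were read as well. All 20 acute phase genes measured had a positive difference, with a median of 0.50, where 11943 of 22180 genes had a positive one. Of the 20, 3 were called, against 0.176% of all genes. They were the metal-binding Mt2 at 2.06 ± 0.42, the siderophore-binding Lcn2 at 1.84 ± 0.40 and Fgl1 at 1.31 ± 0.29 (limma adjusted p from 0.0378 to 0.0461). The fibrinogen genes Fga, Fgb and Fgg differed by 0.18, 0.13 and 0.14, none called. Of 13 genes that carry IL-6 signals to hepcidin, 10 were higher and 3 lower, with a median of 0.073. Il6st, the signalling receptor subunit, was higher in TB by 0.36 ± 0.065 (limma adjusted p = 0.0168). It was the 1 gene of the 13 called, against 0.176% of all genes. The receptor gene Osmr differed by 0.54 ± 0.12 (adjusted p = 0.0538), Stat3, the transcription factor, by 0.44 ± 0.11 (adjusted p = 0.0961) and Cebpa by −0.16 ± 0.058 (adjusted p = 0.278). Lcn2 also stands in the list of iron handling genes. The lists were chosen with earlier results of these data known, so these counts are a description.

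Across arrays none of the relations of Hamp with Saa2, Socs3, Il6st and Tfrc was called. Hamp and Saa2, a serum amyloid gene, had r = 0.109 over all arrays (permutation p = 0.553, adjusted p = 0.611), with −0.326 for the larger set and −0.623 for the smaller. Hamp and Socs3, the feedback inhibitor of STAT3, had r = 0.455 (permutation p = 0.0629, adjusted p = 0.206), with −0.167 and 0.094. Hamp and Il6st had r = 0.457 (permutation p = 0.0643, adjusted p = 0.206), with 0.067 and 0.081. Spearman's rho of these 3 was 0.182 (permutation p = 0.377), 0.372 (permutation p = 0.09) and 0.319 (permutation p = 0.147). Hamp and Tfrc had r = −0.451 (permutation p = 0.0353, adjusted p = 0.185), rho −0.408 (permutation p = 0.0484), with −0.467 and −0.424, the relation of these 4 with similar values in both sets.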

How the data were processed

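RNA of mouse liver was measured on 36 Affymetrix arrays of 1 colour. The deposited values are probe set signals of linear intensity, made by the authors with Affymetrix Expression Console 1.1.1 and PLIER 2.0, per the submitters' processing notes. Neither their settings nor how arrays were scaled to each other is stated in these notes. Medians per array ran from 36.3 to 43.3, 23.0% of values were under 16, and the number of arrays limits the precision.

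Of 41345 probe sets, 25335 were in the platform annotation, 23521 with 1 symbol, 1814 with several. Symbols were updated through RefSeq (23328 matched). Per gene the probe set of highest mean was kept, without a filter on low values. On log2(value + 16), limma 3.58.1 in R 4.3.3 (lmFit, eBayes) fitted 12 group means, or a mean, cosine and sine per genotype for rhythm. P-values were adjusted by Benjamini-Hochberg over 22180 genes, with 0.05 as threshold. Groups came from the titles. Relations across arrays used 100000 permutations within groups. Fits were tested on simulated data.

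Genes were named by rule: all members, in each list up to 3 genes of smallest p for genotype and 3 for WT rhythm, Tfrc, Tmprss6, Hfe and Id2, and the 3 genes most like Hamp, Bmp6, Id1 and Tfr2. Bmp2 and Saa2 are named for their list or relation; Saa1 had no probe set of 1 symbol. The members and lists were chosen with earlier results of these data known. Alternatives were quantile normalization, a pseudocount of 1, median centring, the 7393 genes lowest in mean left out, the mean of probe sets, all probe sets, replicate and array set blocks, arrays of a ZT only, a time factor, and each array left out. Values within array sets and Saa2 were added after the data were seen.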

Additional observations from a re-analysis of the deposited data

Results flagged for a closer look

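In all, 3 tests of a difference between genotypes in the course over the day gave an unadjusted p under 0.05 and did not pass adjustment over all genes. For Hjv the test of whether the genotype difference depends on ZT gave an unadjusted p of 0.00732 (limma over 36 arrays, adjusted p = 1.0), with a difference of −0.71 at ZT 12 and 0.070 at ZT 20, and a p of 0.0386 without the muscle-bearing array. For Hjv the test of equal rhythms gave an unadjusted p of 0.0153 (limma, adjusted p = 0.985), with an amplitude of 0.087 in WT and 0.38 in TB, and a p of 0.0354 without that array. For Hamp2 the test of equal rhythms gave an unadjusted p of 0.0208 (limma, adjusted p = 0.985), with an amplitude of 0.26 in WT and 1.00 in TB. Over all genes 2.48% had such a p in the first test and 4.8% in the second.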

How the results depend on the processing

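Of the 8 genes, those called for the average genotype difference numbered 1 with the replicate block (Bmp6, adjusted p = 0.0369, limma, with 0.266% of all genes called) and 2 with the array set block, against 0. WT and TB arrays of a ZT share replicate numbers, and the number also marks the array set. Deviations of same-numbered arrays correlated over 0.1 in 14 of 18 pairs (−0.052 to 0.413), and in 11 pairs both arrays correlated best with their own number. Since 4 pairs were not over 0.1, the numbers were not taken to pair the samples. Those 4 pairs were all of the larger array set. The pairs of the smaller set had correlations from 0.148 to 0.413, each best with its own number. This rule concerns pairs and does not bear on the array set, for which the main fit holds no term. Calls over all genes were 15 with a pseudocount of 1, 59 with the replicate block and 151 with the array set block, against 39, and median centring turned the split to 19 higher and 22 lower, against 26 and 13. With all probe sets 1 was called at each of ZT 0, 4, 12, 16 and 20, against 0, and at ZT 4 also 1 with a pseudocount of 1 and 1 with the array set block. At ZT 8, with 1 called, a pseudocount of 1 and median centring gave 0, and quantile normalization, the 7393 lowest genes left out, the replicate block, the array set block and only arrays of that ZT gave 2 each. The interaction had 1 with the replicate block. Rhythmic genes numbered 596 in WT and 482 in TB with a time factor, and 2002 in WT and 1660 in TB with the array set block, against 1431 and 1099. The Hjv rhythm in TB was called under all 9 other settings (adjusted p from 0.000682 to 0.0119).

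Signs turned for Smad7 at ZT 0 with quantile normalization (−0.0015) and Bmp6 at ZT 12 with median centring (−0.036). Relations of Hamp turned in the larger set to 0.689 with Hamp2, 0.325 with Bmp6, 0.538 with Smad7, −0.326 with Saa2 and −0.167 with Socs3, and in the smaller to 0.50 with Bmp6, −0.145 with Tfr2, −0.458 with Hjv, 0.782 with Smad7 and −0.623 with Saa2. The larger set called 1 relation, against 5. The cause of these changes was not tested.

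As single arrays were left out, calls over all genes ran from 11 to 109 for the average difference, 0 to 5 at ZT 0, 0 to 1 at ZT 4, 0 to 7 at ZT 8, 0 to 20 at ZT 12, 0 to 3 for the interaction and 0 to 1 for differential rhythm. Calls among the 8 genes ran from 0 to 1 for the average difference and at ZT 12 and from 1 to 2 for the TB rhythm, and called relations from 3 to 6. Differences whose sign turned with a single array, none of them called, ran for Hamp from −0.40 to 0.12 at ZT 0, −0.13 to 0.11 at ZT 8 and −0.31 to 0.13 at ZT 16, for Hamp2 from −0.92 to 0.095 at ZT 4, for Bmp6 from −0.19 to 0.061 at ZT 0 and −0.21 to 0.26 at ZT 12, and for Hjv from −0.14 to 0.0035 at ZT 0 and −0.052 to 0.22 at ZT 20. They ran for Id1 from −0.13 to 0.44 at ZT 0, −0.28 to 0.014 at ZT 4 and −0.040 to 0.36 at ZT 8, for Slc40a1 from −0.24 to 0.090 at ZT 4, −0.067 to 0.15 at ZT 8 and −0.066 to 0.28 at ZT 16, and for Tfr2 from −0.14 to 0.42 at ZT 0, −0.11 to 0.63 at ZT 12 and −0.12 to 0.24 at ZT 20. For Smad7 they ran from −0.058 to 0.19 at ZT 0, −0.19 to 0.30 at ZT 4, −0.49 to 0.045 at ZT 8, −0.027 to 0.49 at ZT 12, −0.064 to 0.29 at ZT 16, −0.040 to 0.15 at ZT 20 and −0.0098 to 0.082 on average. Hamp with Smad7 ran from −0.138 to 0.010.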

Other observations

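Of 16 other genes of iron storage, uptake and export, 7 were higher and 9 lower in TB, with a median of −0.021. Lcn2 was the 1 called, where 0.176% of all genes were. Cp, the ferroxidase ceruloplasmin, differed by 0.20 ± 0.062 (limma adjusted p = 0.2) and Aco1, the iron-regulatory aconitase, by −0.13 ± 0.047 (adjusted p = 0.259). By time of day 3 of the list were called rhythmic in WT and 5 in TB, against 6.45% and 4.95% of all genes. Steap3, a ferrireductase, had amplitudes of 0.32 ± 0.051 in WT and 0.33 ± 0.051 in TB with peaks at ZT 1.78 and 23.9, and the metal importer gene Slc39a8 had amplitudes of 0.26 ± 0.047 and 0.28 ± 0.047 with peaks at ZT 3.12 and 1.46, each called in both genotypes. Ireb2, an iron-regulatory RNA-binding protein, was called in WT (0.27 ± 0.073, adjusted p = 0.0449) and Aco1 in TB (0.21 ± 0.044, adjusted p = 0.00897).

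Of 15 genes of haem handling, 9 were higher and 6 lower in TB, with a median of 0.041 and none called. Hp, the haemoglobin-binding haptoglobin, differed by 0.32 ± 0.12 (limma adjusted p = 0.272), Lrp1 by 0.15 ± 0.070 and Cpox by −0.16 ± 0.079. Alas1, the rate-limiting enzyme of haem synthesis, had amplitudes of 0.99 ± 0.18 in WT (peak ZT 14.4, adjusted p = 0.00127) and 0.94 ± 0.18 in TB (peak ZT 12.3, adjusted p = 0.00283). Bach1, a haem-binding repressor, was called in WT (0.35 ± 0.076, adjusted p = 0.00742) with 0.23 ± 0.076 in TB (adjusted p = 0.166). Of the other lists, Inhba, an activin subunit, was called rhythmic in both genotypes (0.45 and 0.44, peaks at ZT 20.9 and 21), as was Il6ra, the IL-6 receptor gene (0.69 and 0.65, peaks at ZT 13.6 and 12.4), whereas Fst, Tyk2 and Fech were not called in either, and Bmp2 was called in TB (0.28 ± 0.066, peak ZT 11, adjusted p = 0.0201).

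Over the 12 group means, among 10350 genes, the patterns most like that of Hamp were those of Klf5 (Pearson r = 0.927), Ilvbl (0.857) and Kcnma1 (0.857). For Bmp6 they were Tomm7 (0.909), Rdm1 (0.891) and Pcbd2 (0.866), for Id1 Mixl1 (0.913), Sarm1 (0.909) and Qrfp (0.873), and for Tfr2 Plg (0.967), Apcs (0.947) and Lgmn (0.94). These means share their arrays, and the values are a description.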
